A study of Mus musculus with 4 samples.

Results

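Isolated Ring1b regions are 1-kb-scale stretches of the mouse genome where the Ring1b library alone was called enriched and no other Ring1b region lay close by. Of 10580 Ring1b regions, 3486 met this description, a share of 33.0% (95% exact Clopper-Pearson interval 32.05% to 33.85%), among 24796 regions called in all 4 libraries. A Ring1b region was a run of overlapping windows of 1000 bp in which reads reached at least 5 times background, at a Poisson upper-tail probability of at most 1e-09. Background was the larger of the genome mean and the mean over the surrounding 1 Mb, and 0.625% of covered Ring1b windows passed. An isolated region then had no other Ring1b region within 10 kb and overlapped no region of the REST, MCAF1 or H4K20me3 library, in which 0.100%, 0.0726% and 0.396% of windows passed. The isolated regions were therefore chosen by their Ring1b reads and by missing calls elsewhere, and those values are given as a description. Of 8062 Ring1b regions with no Ring1b neighbour within 10 kb, 43.2% were in the set, and of 4818 that overlapped no other library's region, 72.4% were. A further 46 Ring1b regions had a gap of exactly 10 kb to their neighbour and were counted as not isolated.

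The libraries were made from V6.5, an embryonic stem cell line derived from a C57BL/6 and 129 cross, by chromatin immunoprecipitation and sequencing. The groups were 4 antibodies, against Ring1b, REST, MCAF1 and the histone mark H4K20me3, with 1 library each and no genetic change or treatment in the labels. Cells had been grown off feeders for 2 passages before the Ring1b, MCAF1 and H4K20me3 experiments and for 1 passage before the REST experiment, and feeder cells that remained would be part of every library. Antibody and library cannot be told apart, no input library was used here, and every interval below covers counting error only. Without replicate libraries, no comparison below carries a p-value.

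Ring1b is the main ubiquitin ligase of Polycomb repressive complex 1, which places ubiquitin on histone H2A and compacts chromatin at silent genes. In embryonic stem cells, Polycomb complexes cover many promoters rich in CpG dinucleotides, above all those of developmental regulators, and some of these domains are long. REST binds DNA and represses neuronal genes, MCAF1 (ATF7IP) works with the methyltransferase SETDB1, and H4K20me3 is a mark of constitutive heterochromatin. Gene annotation of the mm8 assembly, in which the files give positions, was not used here, so regions are named by position alone.

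After repeated positions were removed, the nuclear libraries held 3083311 Ring1b, 3129369 REST, 11023569 MCAF1 and 7782972 H4K20me3 reads with 1 location. The isolated regions spanned 4990 kb and took 109939 Ring1b reads, 3.57% of that library (3.55% to 3.59%). That was 16.9% of the Ring1b reads in all Ring1b regions, although the isolated regions were 33.0% of those regions by number. Within the isolated regions lay also 32766 REST reads (1.05% of that library), 80340 MCAF1 reads (0.729%) and 73730 H4K20me3 reads (0.947%).

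Most isolated regions were narrow and close to the calling limit, and a small class was wide and strongly enriched. A width of 1000 bp, a single window, was found in 1507 isolated regions (43.2%), and 1564 (44.9%) were 1500 bp wide. Another 351 (10.1%) were 2000 to 3000 bp wide. Only 64 of the 3486, or 1.84% (1.42% to 2.34%), were wider than 3 kb, against 826 of the other 7094 Ring1b regions, or 11.6% (10.9% to 12.4%). The widest isolated region spanned 15500 bp, and 5 isolated regions exceeded 10 kb. A Ring1b region must stand alone to count as isolated, so this width distribution is tied to the rule.

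The highest window of an isolated region held between 14 and 227 Ring1b reads, with a median of 20. Its fold over background lay between 5.12 and 99.2, with a median of 10.4, against a median of 13.4 in the other Ring1b regions. A window at the genome mean needed 14 reads, or 10.4-fold, to be called. A window in a denser 1 Mb needed more, up to 33 among the isolated regions. Of the isolated regions, 520 (14.9%) held exactly the number needed, with 14 to 31 reads and folds of 5.12 to 10.4. Just outside the limit, 1390 windows lacked 1 read, with 13 to 56 reads and folds of 4.82 to 9.70. Isolated regions within 5 reads of the number needed were 63.0% of the set. At the other end, 198 isolated regions (5.68%) reached 20-fold, against 1838 of the other Ring1b regions (25.9%), and 24 isolated regions reached 50-fold.

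Folds near 5 could be called only where the Ring1b background was high, so the rule places the weakest isolated regions in such parts of the genome. The lowest fold was that of chr10:79417001-79418000, whose 25 Ring1b reads stood against a background of 4.89 reads per window, or 5.12-fold (3.31 to 7.56). The same window held 20 REST reads (5.29 times its background), 36 MCAF1 reads (3.18 times) and 34 H4K20me3 reads (2.97 times). A second region of that kind, chr11:118838001-118839000, held 31 Ring1b reads at 5.15-fold (3.50 to 7.31) but only 2 REST reads, at 0.645 times background, and 13 MCAF1 reads, at 1.49 times. Regions of equally low Ring1b fold thus differed in what the other libraries held there.

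The strongest isolated regions were wide, and reads of the other libraries were few there beside those of Ring1b. Among the 10 of highest fold, REST lay between 1.47 and 7.35 times its genome mean. Only chr14:11131501-11141500 exceeded the set's REST median of 5.14 times. MCAF1 lay between 1.25 and 2.92 times, under the set's median of 3.55 times in all 10. H4K20me3 lay between 1.77 and 5.02 times, on both sides of the set's median of 4.43 times. First by fold was chr10:23037001-23041000, 4000 bp wide. Its highest window held 133 Ring1b reads (99.2-fold, 83.0 to 117), 7 REST reads (5.14-fold, 2.07 to 10.6), 9 MCAF1 reads (1.88-fold, 0.858 to 3.56) and 12 H4K20me3 reads (3.55-fold). Second came chr3:154262001-154270000, 8000 bp wide. Its highest window held 187 Ring1b reads (97.1-fold, 83.6 to 112), 2 REST reads (1.44-fold), 12 MCAF1 reads (2.28-fold) and 7 H4K20me3 reads (1.84-fold). In both windows the Ring1b count was far above the others, although the MCAF1 library was the deepest.

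The third region, chr15:72372501-72377500, held 129 Ring1b reads (95.8-fold, 80.0 to 114) beside 5 REST, 8 MCAF1 and 10 H4K20me3 reads. The fourth, chr9:36893001-36897500, held 208 Ring1b reads (82.4-fold, 71.6 to 94.4) beside 2 REST, 9 MCAF1 and 14 H4K20me3 reads. The remaining 6 of the top 10 had folds of 72.1 to 74.5 and widths of 7500 to 15500 bp. They were chr5:67373001-67382000, chr13:36730501-36744500, chr9:69556001-69569500, chr14:11131501-11141500, chr12:104871501-104879000 and chr7:137146501-137162000. The last of these was the widest isolated region, with 1602 Ring1b reads over its length, 77.1 times the genome mean, against 2.37 times for REST and 1.66 times for MCAF1. The second widest, on chromosome 13, held 1213 Ring1b reads over 14000 bp, and the third, on chromosome 9, held 1185 over 13500 bp.

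**Figure D1:**
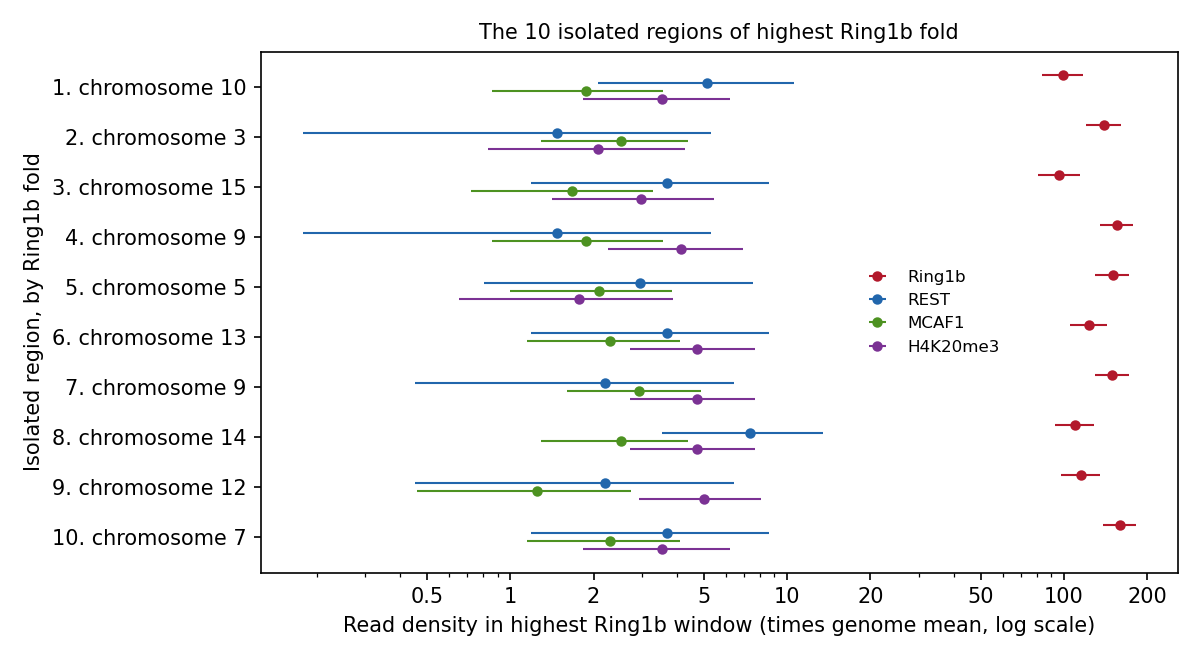
Read density of each library in the highest Ring1b window of the 10 isolated regions of highest Ring1b fold, in times the genome mean on a log scale; points are single libraries and bars are exact 95% Poisson intervals. These rows were chosen for high Ring1b and missing calls elsewhere, so their Ring1b values stand above the rest by choice; the REST, MCAF1 and H4K20me3 values differ from row to row.

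Although no region of another library was called there, most isolated regions carried reads of the other libraries above background. In the highest Ring1b window, REST had a median density of 5.14 times its genome mean (0 to 15.4), MCAF1 of 3.55 times (0 to 10.4) and H4K20me3 of 4.43 times (0 to 16.3). REST reached 3 times background in 2162 of the 3486 windows, or 62.0% (60.4% to 63.6%), against 2.48% of covered windows. H4K20me3 did so in 1668, or 47.9% (46.2% to 49.5%), against 1.74%. MCAF1 did so in 1069, or 30.7% (29.1% to 32.2%), against 0.668%. Other Ring1b regions also held such signal. In the isolated Ring1b regions that overlapped H4K20me3 alone, REST reached 3 times background in 66.1% and MCAF1 in 31.8%, and in the Ring1b regions of domains longer than 10 kb in 55.3% and 29.7%. All 3 were at or above that level together in 385 isolated regions, or 11.04%, against 0.191% of covered windows. The missing calls therefore meant a density under each library's own calling limit, which at the genome mean stood at 14 REST, 24 MCAF1 and 20 H4K20me3 reads. Covered windows were those with any read, sparse ones included, while each isolated region held at least 14 Ring1b reads. How far unequal mapping of reads enters the contrasts with covered windows was not tested.

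In only 1 isolated region were all 3 other libraries at or below their background, against 44.7% of covered windows, sparse ones included. This was chr4:124352501-124353500, with 20 Ring1b reads (7.84-fold, 4.79 to 12.1), 2 REST reads (0.693-fold), 2 MCAF1 reads (0.232-fold) and 4 H4K20me3 reads (0.580-fold). At the opposite limit, 10 isolated regions held 13 REST reads at 9.55-fold (5.09 to 16.3), 1 read under the number needed. The first 3 of them in order of chromosome name were chr10:22420501-22422000, chr12:91995001-91996500 and chr12:102118501-102120500. The highest MCAF1 fold in these windows was that of chr5:97236501-97239000, where 24 reads met the probability but reached 4.998-fold of the 5 required. For H4K20me3, chr3:135360001-135361000 had the highest fold, with 20 reads at 5.70-fold (3.48 to 8.81).

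The densest of the other libraries was REST in 1846 isolated regions (53.0%), H4K20me3 in 1175 (33.7%) and MCAF1 in 465 (13.3%). This order is tied to the rule, which let REST reach a higher density without a call than MCAF1 or H4K20me3. REST also had the fewest reads of the 3 other libraries, so its densities carry the most counting error. The Ring1b density was a median of 2.51 times the highest of the 3, from 1.02 to 55.7 times. A ratio above 1 is largely set by the rule, since at the genome mean a call needed 10.4 times for Ring1b and 10.3, 5.01 and 5.91 times for REST, MCAF1 and H4K20me3. The ratio was at least 3 in 1172 isolated regions, or 33.6% (32.05% to 35.2%), and in 3.21% of covered windows, from which nothing is read because the rule used these values. It was at least 3 in 833 of the 2958 isolated Ring1b regions that overlapped H4K20me3 alone, or 28.2% (26.6% to 29.8%), and in 643 of the 1190 Ring1b regions in domains longer than 10 kb, or 54.0% (51.2% to 56.9%). A domain here is a run of Ring1b regions with gaps of at most 10 kb.

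Across isolated regions, the Ring1b density in the highest window was weakly related to that of the other libraries. Spearman's rho over the 3486 regions was 0.28 with H4K20me3, 0.11 with REST and 0.10 with MCAF1, while REST and MCAF1 were related to each other at 0.36. Over the 3071 regions up to 1500 bp wide, the values were 0.24, 0.21 and 0.22, so the lower values for REST and MCAF1 rest on the wider regions. The points share libraries, and sequence that reads map to unequally, so these are descriptions. In the 24 isolated regions of 50-fold or more, the medians were 129 times for Ring1b, 3.31 times for REST, 2.29 times for MCAF1 and 4.73 times for H4K20me3.

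**Figure D2:**
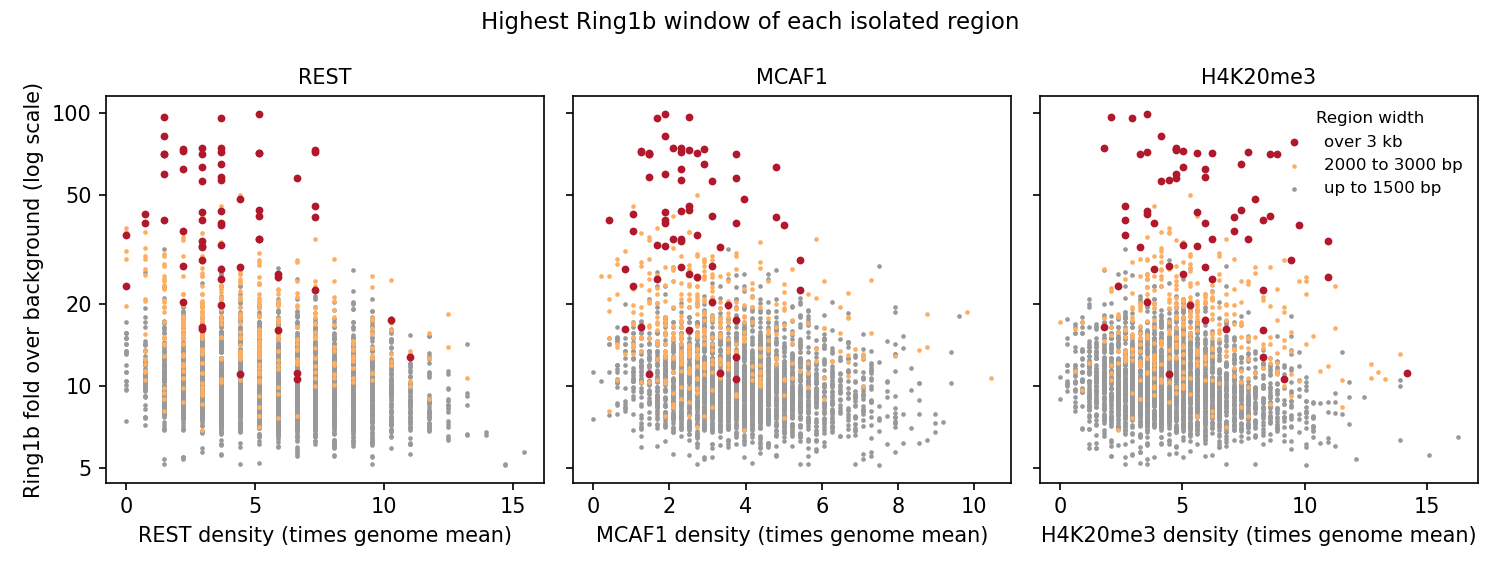
Ring1b fold over background (log scale) against the density of REST, MCAF1 or H4K20me3, in times the genome mean, in the highest Ring1b window of each of the 3486 isolated regions; colours give the width. Isolated regions wider than 3 kb fill the top of each panel, and regions up to 1500 bp wide, 3071 in number, lie between 5.12-fold and 31.8-fold.

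Wide isolated regions held more Ring1b, and less REST and MCAF1, than narrow ones. Over their whole length, the 64 isolated regions wider than 3 kb had a Ring1b density of 47.9 times the genome mean (47.3 to 48.5), and the 3071 up to 1500 bp wide had 13.3 times (13.2 to 13.4). REST and MCAF1 went the opposite way. REST stood at 3.25 times in the wide regions and 5.15 times in the narrow ones, MCAF1 at 2.16 and 3.57 times, and H4K20me3 at 4.20 and 4.34 times. In the highest window alone, the median REST density was likewise lower in the wide regions, at 3.67 times, than in the narrow ones, at 5.14 times, and MCAF1 had 2.29 and 3.76 times. H4K20me3 had 5.47 times there in the wide regions and 4.43 times in the narrow ones. Ring1b was at least 3 times as dense as the highest other library in 61 of the 64 wide regions (95.3%, 86.9% to 99.0%) and in 861 of the 3071 narrow ones (28.0%, 26.5% to 29.7%). Windows at 3 times REST background or more were found in 27 of the 64 wide regions (42.2%, 29.9% to 55.2%) and in 1958 of the 3071 narrow ones (63.8%, 62.0% to 65.5%). Windows at 3 times MCAF1 background or more were found in 5 of the 64 wide regions and in 988 of the 3071 narrow ones (32.2%). For H4K20me3 the shares were 47 of 64 (73.4%, 60.9% to 83.7%) and 1389 of 3071 (45.2%, 43.5% to 47.0%). A wider region must hold more called windows, so its Ring1b density is tied to the rule. It must also lack a call of the other libraries along a greater length. Its lower REST and MCAF1 densities are therefore not free of the rule either.

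The 351 isolated regions of 2000 to 3000 bp lay between these classes for Ring1b, at 17.7 times the genome mean, for REST, at 3.94 times, and for MCAF1, at 2.84 times. The 826 other Ring1b regions wider than 3 kb had a Ring1b density of 50.1 times, close to the 47.9 times of the wide isolated regions. Their densities of REST (4.45 times), MCAF1 (2.70 times) and H4K20me3 (5.47 times) were higher, and overlap with calls in those libraries was part of what kept regions out of the isolated set.

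Averaged around the centre of the highest Ring1b window, the narrow isolated regions showed a Ring1b peak with a smaller peak of each other library at the same place. In the isolated regions up to 1500 bp wide, the highest step of 100 bp stood at 20.4 times the genome mean for Ring1b, 7.04 times for REST, 5.004 times for H4K20me3 and 4.37 times for MCAF1. Relative to the density 10 to 20 kb away, these were rises of 13.6, 4.57, 3.05 and 2.81 times. The width at the middle of the rise was 800 bp for Ring1b and for REST, 1000 bp for MCAF1 and 1300 bp for H4K20me3. The Ring1b rise and width are largely set by the 1000-bp window and the width class, which were chosen on these reads. In the isolated regions wider than 3 kb, the highest step reached 85.3 times for Ring1b, 4.94 times for REST, 3.13 times for MCAF1 and 6.42 times for H4K20me3, and the Ring1b peak was 1500 bp wide at its middle.

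**Figure D3:**
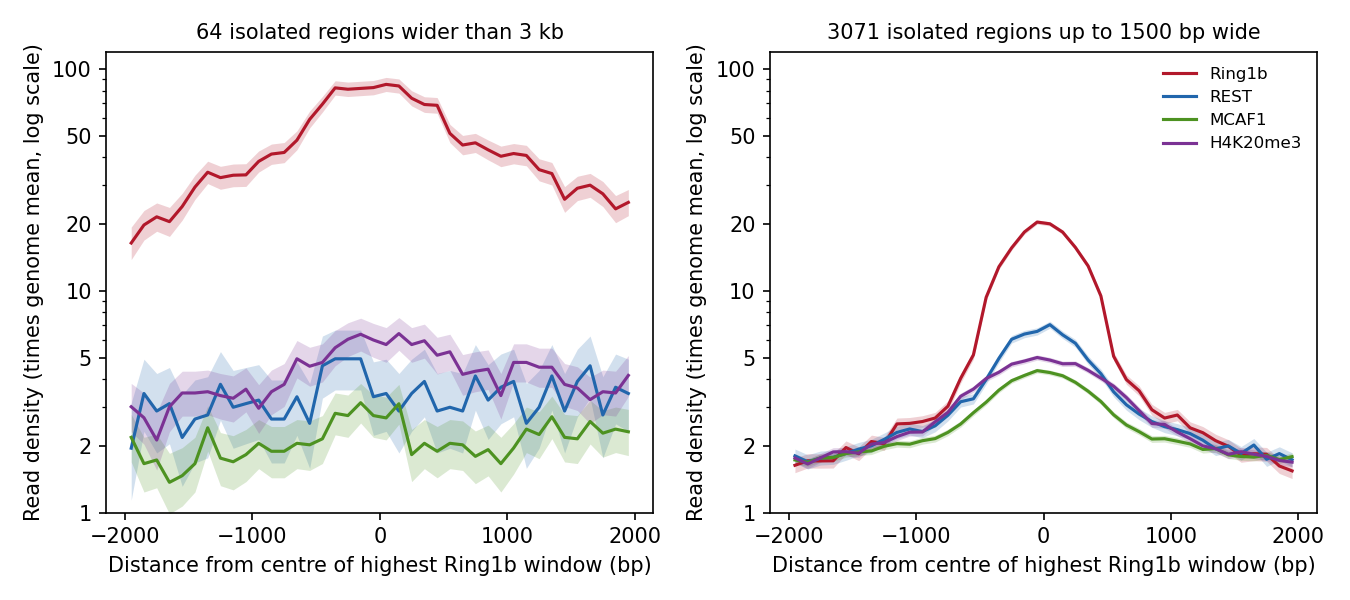
Read density of the 4 libraries, in times the genome mean on a log scale, by distance from the centre of the highest Ring1b window, in 64 isolated regions wider than 3 kb (left) and 3071 up to 1500 bp wide (right), in steps of 100 bp; bands are exact 95% Poisson intervals. The Ring1b peak reached 85.3 times in the wide regions and 20.4 times in the narrow ones, while REST peaked at 4.94 and 7.04 times.

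Outside the isolated regions, Ring1b density dropped within 2 kb of the edges. Over all 3486 it was 2.51 times the genome mean in the first 1 kb beyond the edges, 1.57 times from 1 to 2 kb, 1.32 times from 2 to 5 kb and 1.27 times from 5 to 10 kb. It then stood at 1.52 times from 10 to 20 kb and 1.56 times from 20 to 50 kb. The step at 10 kb coincides with the distance up to which the rule allowed no other Ring1b region. REST, MCAF1 and H4K20me3 were likewise above their genome means at 20 to 50 kb, by 1.52, 1.53 and 1.63 times.

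Around the isolated regions wider than 3 kb, Ring1b density at 20 to 50 kb was 2.45 times the genome mean (2.41 to 2.50), against 1.54 times around those up to 1500 bp wide. REST (1.38 times), MCAF1 (1.37 times) and H4K20me3 (1.59 times) were lower there than Ring1b. This height rested on a few regions: the median per wide region was 1.18 times, the highest single value was 31.1 times, and without the 3 highest the density was 1.52 times. Of the wide isolated regions, 9 of 64 (14.1%, 6.64% to 25.02%) had another Ring1b region wider than 3 kb within 100 kb, as did 230 of the 3071 narrow ones (7.49%, 6.58% to 8.48%). These intervals overlap.

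**Figure D4:**
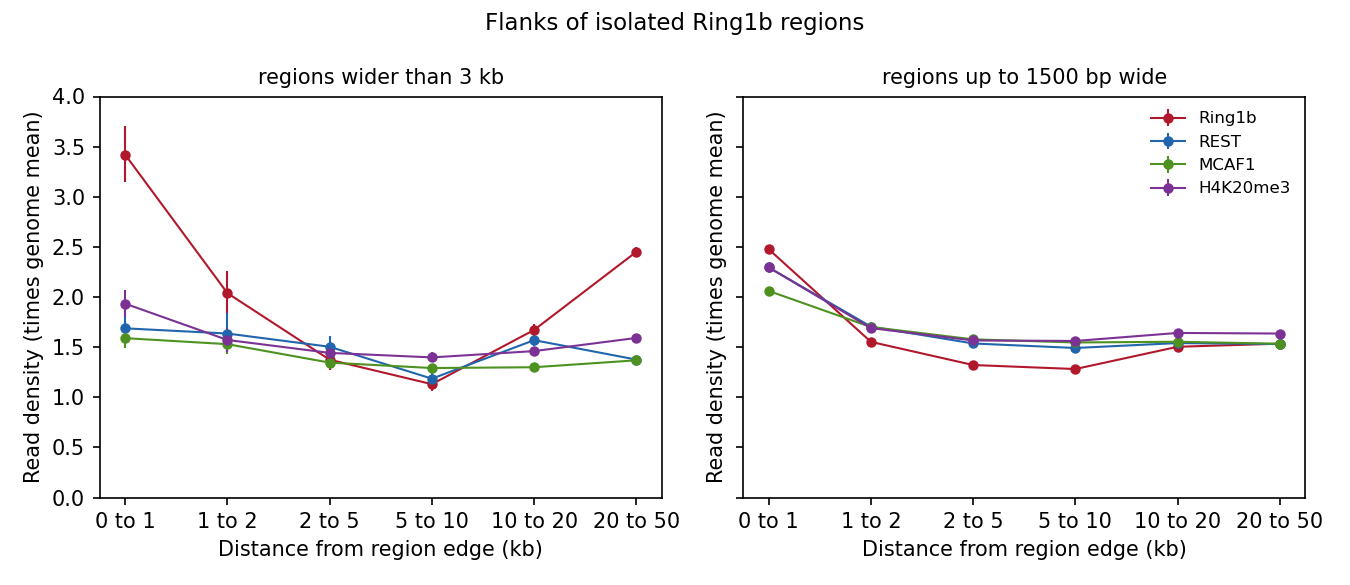
Read density, in times the genome mean, by distance from the region edge for isolated regions wider than 3 kb (left) and up to 1500 bp wide (right), both sides summed; bars are exact 95% Poisson intervals. Ring1b at 20 to 50 kb stood at 2.45 times around the wide regions, which rests on a few of them, and at 1.54 times around the narrow ones.

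Reads with 2 reported locations were not counted in the choice of regions, but they come from the same libraries and immunoprecipitations. The files hold reads in categories named BWT1 and BWT2, without a definition in the accompanying note, and these were read as reads with 1 and with 2 locations. On that reading each BWT2 read is entered at both places, and its source cannot be told apart. Ring1b and REST reads were aligned with seeds of 26 bases, and MCAF1 and H4K20me3 reads with seeds of 36. The effect of seed length on which reads have 2 locations was not tested. Differences between these pairs of libraries therefore cannot be told apart from seed length. In the isolated regions, 3566 Ring1b reads of this kind amounted to 4.399 times their genome mean (4.26 to 4.55). REST stood at 1.66 times (1.58 to 1.74), H4K20me3 at 1.28 times (1.22 to 1.35) and MCAF1 at 0.783 times (0.740 to 0.827). Only 1311 isolated regions (37.6%) held any such Ring1b read. In the 64 wide isolated regions, Ring1b reached 8.93 times (8.18 to 9.74), and 59 of them held at least 1 such read. REST stood at 1.09 times there (0.854 to 1.36), H4K20me3 at 0.612 times and MCAF1 at 0.141 times, from 16 MCAF1 reads. In the isolated regions up to 1500 bp wide, the values were 3.99 times for Ring1b, 1.75 times for REST, 1.39 times for H4K20me3 and 0.886 times for MCAF1. The other Ring1b regions had 9.65, 3.66, 2.94 and 2.71 times in the same order of libraries.

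A few isolated regions contributed many of these reads. At chr5:72859001-72860500, 122 Ring1b reads with 2 locations lay beside 20 with 1 location, and REST had 13, MCAF1 20 and H4K20me3 58 with 2 locations. At chr14:78160001-78161500 the Ring1b number was 96, with 12 for REST, 87 for MCAF1 and 67 for H4K20me3. At chr11:29724501-29726000 it was 77, with 18 for REST, 30 for MCAF1 and 89 for H4K20me3. In these 3 regions every library had reads with 2 locations, unlike most of the set. Without them, Ring1b stood at 4.04 times the genome mean (3.901 to 4.18), REST at 1.62, H4K20me3 at 1.11 and MCAF1 at 0.698 times.

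**Figure D5:**
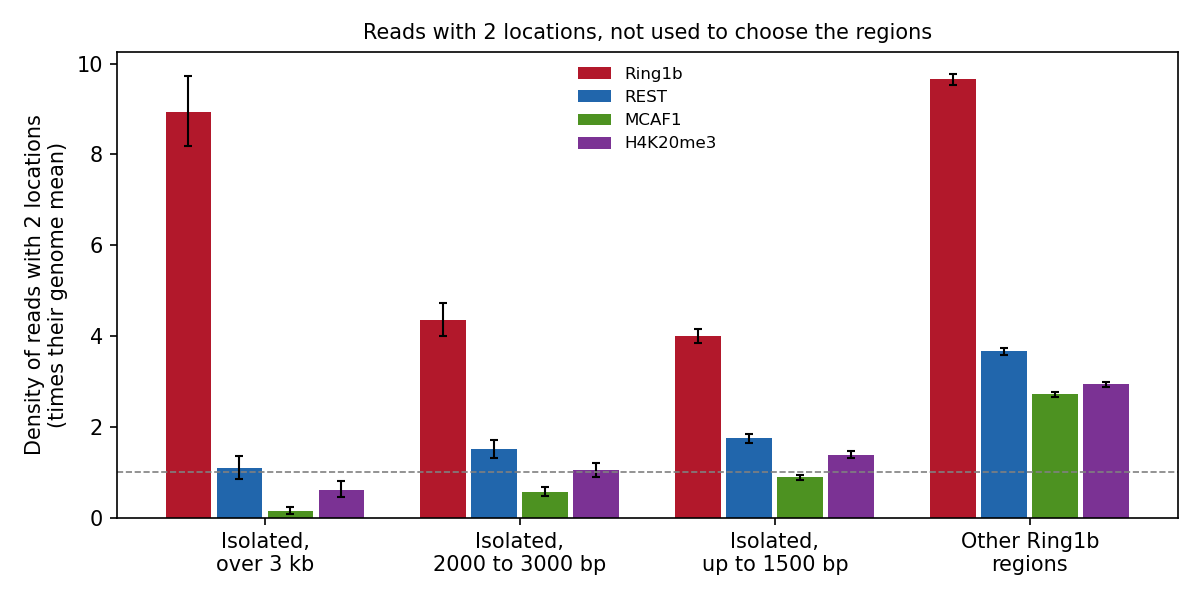
Density of reads with 2 locations, in times the genome mean of those reads, in isolated regions of 3 width classes and in the other Ring1b regions; bars are the 4 libraries, error bars are exact 95% Poisson intervals, and the dashed line is the genome mean. Ring1b stood at 8.93 times in isolated regions wider than 3 kb and at 3.99 times in those up to 1500 bp wide, while MCAF1 lay under 1 in every isolated class. MCAF1 and H4K20me3 reads were aligned with longer seeds than Ring1b and REST reads.

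When the reads of each library were divided at random into 2 parts and regions were chosen from 1 part alone, 3881 isolated regions resulted. For this choice the probability limit was loosened from 1e-09 to its square root, so the number is not one at the main limit. Their median fold was 10.4 in the part that chose them and 7.32 in the other part. In the other part, 2789 of them, or 71.9% (70.4% to 73.3%), reached 5 times background, against 1.46% of covered windows, and 56 (1.44%) were at or below background. Both parts of each library come from the same immunoprecipitation, so this measures sampling of reads and not repetition of the experiment. With the reads of the other 3 libraries pooled as a further background, a setting chosen after seeing the data, 733 of the 3486 isolated regions (21.0%, 19.7% to 22.4%) still overlapped a Ring1b call. These included 63 of the 64 wider than 3 kb and had a median Ring1b fold of 15.6, against 9.96 for the 2753 that were no longer called. A raised background keeps regions of high Ring1b fold, and with them the wide ones, by its construction. REST had a median of 3.67 times its genome mean in the 733 and 5.88 times in the 2753, a direction that the setting itself favours because REST reads are part of that background.

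Ring1b reads in the isolated regions were balanced between strands and spread over the window. Of the distinct reads, 49.7% lay on the plus strand (49.4% to 50.0%). Repeated positions made up 6.21% of Ring1b reads in the isolated regions, against 6.31% in the whole nuclear genome. For H4K20me3 these shares were 2.68% and 2.06%, for REST 14.1% and 12.6%, and for MCAF1 12.7% and 12.2%. The Ring1b reads of the highest window fell in 8 or more of its 10 steps of 100 bp in 2125 isolated regions (61.0%) and in 3 or fewer in 7. Opposite-strand pairs of Ring1b reads peaked at a spacing of 145 bp in the wide isolated regions, 1.29 times their frequency at 500 to 1000 bp. In those up to 1500 bp wide the spacing was 114 bp, at 3.35 times. Spacings of 500 to 1000 bp take up much of a region that narrow, so region width enters the ratio. The 3.35 and 1.29 times therefore cannot be compared. Whether a minus-strand entry marks the first or the last base of a read is not stated, which would move the spacings of 145 and 114 bp by about a read length.

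The isolated regions were found on every chromosome, at 1.52 per Mb of covered sequence (1.47 to 1.57). Chromosome 11 had the most, 2.64 per Mb (2.35 to 2.96), followed by chromosome 7 with 2.15 and chromosome 17 with 2.07. The X chromosome had 0.693 per Mb (0.548 to 0.863), fewer than any autosome, and its Ring1b read density was 0.387 of the genome mean. Background was never taken below the genome mean, so a call on X needed at least 14 reads although reads there were sparser. The number of X chromosomes per cell was not taken into account. Of the 165 Ring1b regions on X, 79 were isolated, a share of 47.9% (40.05% to 55.8%), against 33.0% over the genome. Chromosomes with more Ring1b reads per window had more isolated regions per Mb, with a Spearman rho of 0.89 over 20 chromosomes, Y left out; the counts and the read density come from the same reads.

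Isolation by the rule did not mean great distance from other regions. The median distance to the next Ring1b region was 52000 bp, from 10500 bp to 5644000 bp, and 73.7% of isolated regions had another within 100 kb. The greatest distance was that of chr15:18763001-18764000, a single window with 15 Ring1b reads (11.2-fold, 6.26 to 18.5), 1 REST read and 15 MCAF1 reads. The smallest distance of 10500 bp was shared by 34 isolated regions. One of them was chr1:78098501-78102000, the first of them by position, whose highest window held 82 Ring1b reads (32.9-fold, 26.2 to 40.8). The nearest H4K20me3 region lay a median of 63750 bp away, the nearest REST region 174000 bp and the nearest MCAF1 region 402000 bp. Another library's region lay within 10 kb of 374 isolated regions (10.7%, 9.72% to 11.8%), and 69 touched one without overlap.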

How the data were processed

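Per the file headers, the deposited values are signed read positions, a plain list with no unit of expression (another kind of value than counts), in which a minus sign marks the minus strand. Per the submitters' processing notes and the file headers, reads were aligned with Bowtie to mm8, with seeds of 26 bases (Ring1b, REST) or 36 bases (MCAF1, H4K20me3) and at most 2 locations per read. Its version was not given in the sources used. Fragments, per the labels' protocols, averaged 500 bp, amplification took 18 cycles and gel slices were 150 to 300 bp (Ring1b, MCAF1) or 150 to 350 bp (REST, H4K20me3).

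From these positions, 1 read per position and strand with 1 location was kept and shifted 75 bp. Windows of 1000 bp every 500 bp were called as described above; covered windows were those with any read (87.4%). Positions were converted to count from 1. Density is reads over those expected at the library's genome mean over covered windows. Intervals are exact 95% Poisson or Clopper-Pearson intervals. The calling step was tested on simulated data. The isolated regions, lists and alternatives were chosen with earlier results of these data known. Regions named were the 10 of highest fold, the 3 widest, and those at the limits of fold, distance, other libraries' fold and reads with 2 locations; most are given. Reads with 2 locations entered only where stated, and mitochondrial reads were left out. Software: matplotlib 3.10.9, scipy 1.17.1, numpy 2.4.6 and Python 3.11.15.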

Additional observations from a re-analysis of the deposited data

Results flagged for a closer look

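Reads with 2 reported locations lie outside the measurement that chose the isolated regions, and a signal of them there was looked at for this reason. In the isolated regions, these reads stood at 4.399 times their genome mean for Ring1b, 1.661 times for REST and 1.28 times for H4K20me3. For MCAF1 they stood at 0.7827 times, under the genome mean, from 1250 reads. No control library was used here. Whether the reads came from the isolated region or from their other location cannot be told apart. The libraries also differed in seed length, 26 bases for Ring1b and REST and 36 for MCAF1 and H4K20me3, whose effect was not tested.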

How the results depend on the processing

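The number of isolated regions, 3486, stayed within 1.5 times under 12 of 15 alternatives (2783 to 4702), but not always with the same regions. Of the 3486, 59.5% overlapped an isolated region at 1e-12, 59.8% in the choice from 1 part of the reads, 69.4% at 1e-06 and 70.3% with windows of 2000 bp. The choice from 1 part of the reads used the square root of 1e-09 as its probability limit. The number was 5783 with all libraries thinned to the smallest, 2040 with the genome mean as the sole background, and 879 with the pooled other libraries as a further background, an alternative chosen after seeing the data. Against that pooled background, 733 of the 3486 isolated regions (21.0%) still overlapped a Ring1b call. Among them were 63 of the 64 wider than 3 kb, whose high Ring1b fold this setting favours. With the genome mean alone, 43.0% of the 3486 still overlapped an isolated region, and with thinned libraries 97.8%. Ring1b was itself the smallest library, so thinning took reads from the other libraries only. It left 10472 Ring1b regions, against 10580 in the report. The share of Ring1b regions that were isolated, 32.95% in the report, was 30.16% at a probability of 1e-06, 37.11% at 1e-12, 26.75% at 3 times background, 36.35% with isolation over 5 kb, 27.45% over 20 kb, 31.52% with repeated positions kept, 34.05% with 2-location reads added, 29.41% with no other library's region within 10 kb, 26.3% with the other libraries called at 1e-06, 55.22% with thinned libraries, 15.24% with the genome mean alone, 50.87% with windows of 2000 bp, 31.25% from 1 part of the reads and 29.8% with the pooled background.

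Densities in the isolated regions, in times the genome mean, were 4.825 (REST), 3.358 (MCAF1) and 4.365 (H4K20me3) and stayed above 1 throughout. In that order they were 4.129, 3.204 and 3.976 at 1e-06, and 4.959, 3.333 and 4.659 at 1e-12. At 3 times background they were 4.65, 3.126 and 3.946. Over 20 kb they were 4.753, 3.289 and 4.281, and over 5 kb MCAF1 was 3.384. With repeated positions they were 4.621, 3.324 and 4.223, and with 2-location reads 4.502, 3.289 and 4.281. With the other libraries called at 1e-06, REST was 4.385 and H4K20me3 4.323. They were 4.329, 3.119 and 4.66 with thinned libraries, 4.006, 2.766 and 3.178 with the genome mean alone, 3.808, 2.92 and 4.042 with 2000-bp windows, 4.587, 3.256 and 4.266 from 1 part of the reads, and 3.416, 2.363 and 3.739 with the pooled background. The cause of these moves was not tested, beyond the fewer reads of thinned libraries.

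No paired analysis was possible because each antibody has 1 library. Depth limits the calls: at the genome mean 14 Ring1b reads made a call, so weaker enrichment was not detectable, and a missing call in another library means only a density under its own limit.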
